A study of Homo sapiens with 6 samples.

Results

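The genes described here were 7 genes of the MHC class I pathway: the heavy chains HLA-B, HLA-C, HLA-E, HLA-F and HLA-G, the light chain B2M, and NLRC5. They were chosen by symbol in the deposited gene table, where each of the 7 symbols had a single row among 57820. RNA was measured in M14, a human melanoma cell line that carries a doxycycline-inducible shRNA against STAG2, a subunit of the cohesin ring. Cells were kept for 5 days without doxycycline (WT, 3 libraries) or with it (STAG2-KD, here KD, 3 libraries), and all of them carried the shRNA construct and were grown under puromycin. No library of cells with doxycycline but without the STAG2 shRNA, or with another shRNA, was analysed here. Lower STAG2, other effects of the shRNA and doxycycline itself thus cannot be told apart, and all values come from 1 line. The comparison asks which genes change their expression when STAG2 is knocked down.

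MHC class I molecules carry short peptides from inside the cell to its surface, where CD8 T cells inspect them. A heavy chain binds the peptide, and the invariant light chain B2M (beta-2-microglobulin) helps to hold the peptide-binding heavy chain in shape. HLA-B and HLA-C belong to the classical, highly variable heavy chains, while HLA-E, HLA-F and HLA-G are less variable, and HLA-E presents peptides cut from the leader of other heavy chains to receptors on natural killer cells. NLRC5 is a transactivator that acts at the promoters of class I genes through DNA-binding factors of the RFX, CREB/ATF and NF-Y families at the so-called X and Y boxes. Interferons raise class I genes through sites bound by IRF and STAT factors, and melanomas are known for losing class I expression as a way to escape T cells.

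The promoters of these genes are shown because the 7 genes changed in the same direction, as described below. RefSeq promoter windows on GRCh38.p14 were at hand for 5 of the 7 genes, namely HLA-B, HLA-C, HLA-F, HLA-G and B2M. Each sequence is the 250 bases before an annotated start, written from 5′ to 3′ along the gene. The windows lie at chr6:31357180-31357429 (minus strand, HLA-B), chr6:31272093-31272342 (minus strand, HLA-C), chr6:29723184-29723433 (plus strand, HLA-F), chr6:29827575-29827824 (plus strand, HLA-G, the most downstream of its 3 annotated starts) and chr15:44711267-44711516 (plus strand, B2M). Capitals mark every match, on either strand, to the letters searched: the core of the interferon-stimulated response element (ISRE: GAAA, any 2 bases, GAAA), GAANNGAAA (a form with 1 base less, added after the sequences had been seen), TTCNNNGAA (GAS, the STAT site), GGGANTNCC (the kappa B site of class I genes), TGACG (core of the X2 box) and CCAAT (Y box).
HLA-B: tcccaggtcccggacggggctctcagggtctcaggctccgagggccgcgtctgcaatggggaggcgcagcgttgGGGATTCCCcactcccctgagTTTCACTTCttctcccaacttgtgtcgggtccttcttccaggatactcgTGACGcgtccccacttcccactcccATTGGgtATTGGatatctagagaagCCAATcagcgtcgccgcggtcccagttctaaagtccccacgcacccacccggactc
HLA-C: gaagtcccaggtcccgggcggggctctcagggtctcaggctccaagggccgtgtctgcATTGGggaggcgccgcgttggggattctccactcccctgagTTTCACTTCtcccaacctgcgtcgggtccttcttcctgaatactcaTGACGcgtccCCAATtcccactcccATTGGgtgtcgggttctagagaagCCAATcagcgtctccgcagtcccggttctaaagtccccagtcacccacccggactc
HLA-F: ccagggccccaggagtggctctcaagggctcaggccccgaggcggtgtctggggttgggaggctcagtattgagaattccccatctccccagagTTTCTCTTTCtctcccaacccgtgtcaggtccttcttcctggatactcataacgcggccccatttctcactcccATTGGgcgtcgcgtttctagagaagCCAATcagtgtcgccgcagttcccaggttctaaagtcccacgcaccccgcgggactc
HLA-G: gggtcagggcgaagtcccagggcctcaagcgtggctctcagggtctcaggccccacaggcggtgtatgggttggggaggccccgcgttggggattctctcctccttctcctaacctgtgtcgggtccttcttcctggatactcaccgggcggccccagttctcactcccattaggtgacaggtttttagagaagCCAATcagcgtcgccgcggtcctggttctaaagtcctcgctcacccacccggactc
B2M: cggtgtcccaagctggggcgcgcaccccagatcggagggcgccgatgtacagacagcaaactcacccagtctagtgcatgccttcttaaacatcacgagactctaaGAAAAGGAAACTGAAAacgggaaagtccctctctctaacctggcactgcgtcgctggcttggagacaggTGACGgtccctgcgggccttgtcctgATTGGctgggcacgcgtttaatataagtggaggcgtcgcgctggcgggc

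The 10-letter ISRE core was found in B2M, in 2 overlapping copies between 144 and 129 bases before the start, and in HLA-F, between 156 and 147 bases before it. HLA-B and HLA-C held the 9-letter form at nearly the same place, starting 155 and 151 bases before the start. HLA-G held neither form in the window printed, nor in the windows of its other 2 annotated starts. Of 35116 RefSeq windows of this length, 3.02% held the 10-letter form, 6.56% the 9-letter form and 9.08% at least one of them. The kappa B letters, which read the same site on both strands, were found in HLA-B alone among the 5 genes and in 3.75% of all windows. The X2 core was found in HLA-B, HLA-C and B2M (21.2% of all windows) and the Y box in all 5 genes (32.0% of all windows), while the GAS letters were in none of the 5 and in 6.57% of all windows. A match of letters is a description of the sequence and not of a bound factor, and several of these letters are short enough to be common.

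**Figure D1:**
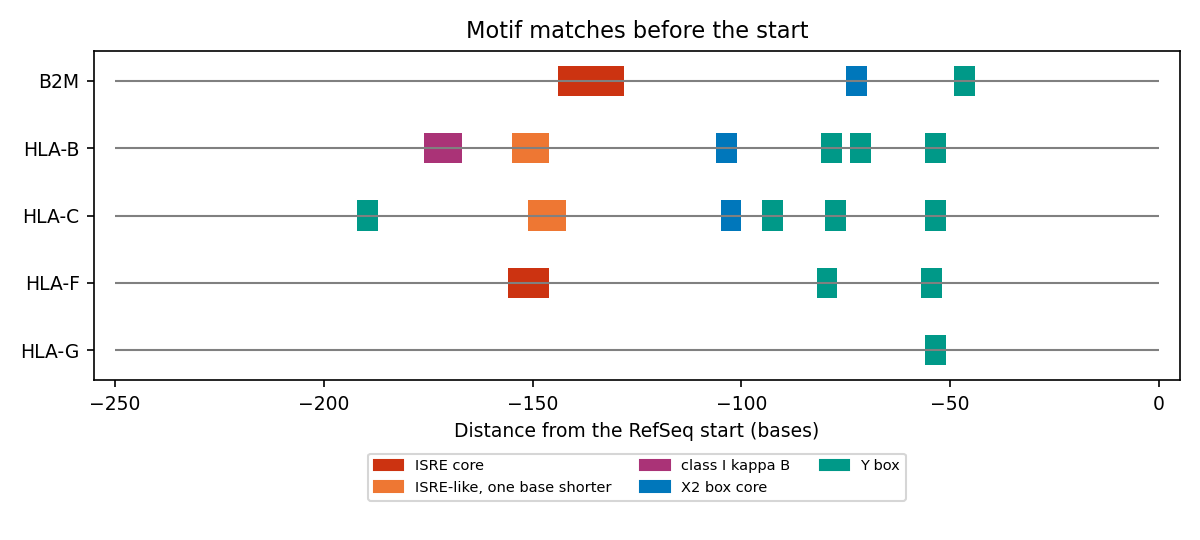
Matches to the searched letters in the 250 bases before the RefSeq start of B2M, HLA-B, HLA-C, HLA-F and HLA-G (the most downstream start), with the distance from the start in bases on the horizontal axis and 1 colour per motif. The ISRE core of HLA-F and the 9-letter forms of HLA-B and HLA-C begin between 156 and 151 bases before the start, that of B2M at 144, and HLA-G shows a Y box only.

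The libraries held between 24895998 and 35181733 expected counts. In them, 3 counts corresponded to at most 0.112 CPM (counts scaled to library size with TMM normalization). The MHC class I genes chosen here were above this level in every library. STAG2 was lower in each KD library (6.70 to 16.0 CPM) than in each WT library (28.8 to 66.5 CPM). WT replicate 1 stood apart from the other libraries, with 5.07% of its counts from mitochondrial genes against 2.12% to 2.94% elsewhere and a summed level of 8 melanocyte markers of 6311 CPM against 1195 to 2606 CPM. All 8 melanocyte markers (MITF, SOX10, PMEL, MLANA, TYR, TYRP1, DCT and S100B) averaged at least 1 CPM. One of the 8 fell in KD, S100B (log2 fold change −1.35, adjusted p = 0.00949, edgeR), and SOX10 was lower without overlap (−0.67, adjusted p = 0.151). With the replicate block SOX10, PMEL, MLANA, TYRP1 and DCT passed as well, all lower in KD (adjusted p from 0.00109 for DCT to 0.0275 for MLANA, edgeR). MITF, also lower, did not pass with the block (log2 fold change −0.80, adjusted p = 0.0668, edgeR). TYR went the other way and did not pass either (0.51 with the block, adjusted p = 0.129, edgeR). Most lineage markers were thus lower while the class I genes were higher, and the part of this in the class I values was not tested. Blood cells are rich in class I molecules, but the 10 leukocyte markers summed to between 1.83 and 2.70 CPM in WT and between 2.18 and 4.59 CPM in KD, with CD3D, CD3E, CD8A, MS4A1 and AIF1 at 0 in all 6 libraries and PTPRC at 0 in all but WT replicate 3 (0.582 CPM). Endothelial markers summed to 1.75 to 3.69 CPM in WT and 2.08 to 5.45 CPM in KD, and keratinocyte markers to 0.410 to 4.24 CPM and 0.372 to 0.857 CPM. In bulk RNA, fewer cells of a kind and less RNA per cell cannot be told apart. The paper counts its RNA-seq replicates as biologically independent, while the labels do not say whether they were separate cultures. The p-values measure the spread between these libraries.

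All 7 MHC class I genes were higher in KD than in WT, by between 2.94-fold for HLA-E and 7.37-fold for HLA-B, and for each of them the 3 KD libraries lay above the 3 WT libraries. Each passed an adjusted p of 0.05 in edgeR's quasi-likelihood test, with a median log2 fold change of 2.16, where the median over all 15605 tested genes was −0.03. Over all tested genes, 404 (2.59%) passed this test, 273 of them (1.75%) higher and 131 (0.839%) lower in KD. With the replicate number as a block 1486 (9.52%) passed, 796 (5.1%) higher and 690 (4.42%) lower. The share was 6.47% with DESeq2, 2.55% with upper-quartile normalization, 2.64% with limma-voom, 4.54% without a filter on low counts and 3.55% among genes with at least 10 counts in every library. Leaving out a library, it was 3.22% (531 genes) without WT replicate 1, 1.07% (177) without WT replicate 2, 0.989% (165) without WT replicate 3, 1.44% (241) without KD replicate 1, 0.88% (146) without KD replicate 2 and 0.733% (121) without KD replicate 3. All 7 class I genes passed in each of these fits. Groups without overlap were found in 22.3% of all tested genes, and KD above WT without overlap in 11.8%. These genes were chosen with results of these libraries known, so that their count is a description.

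**Figure D2:**
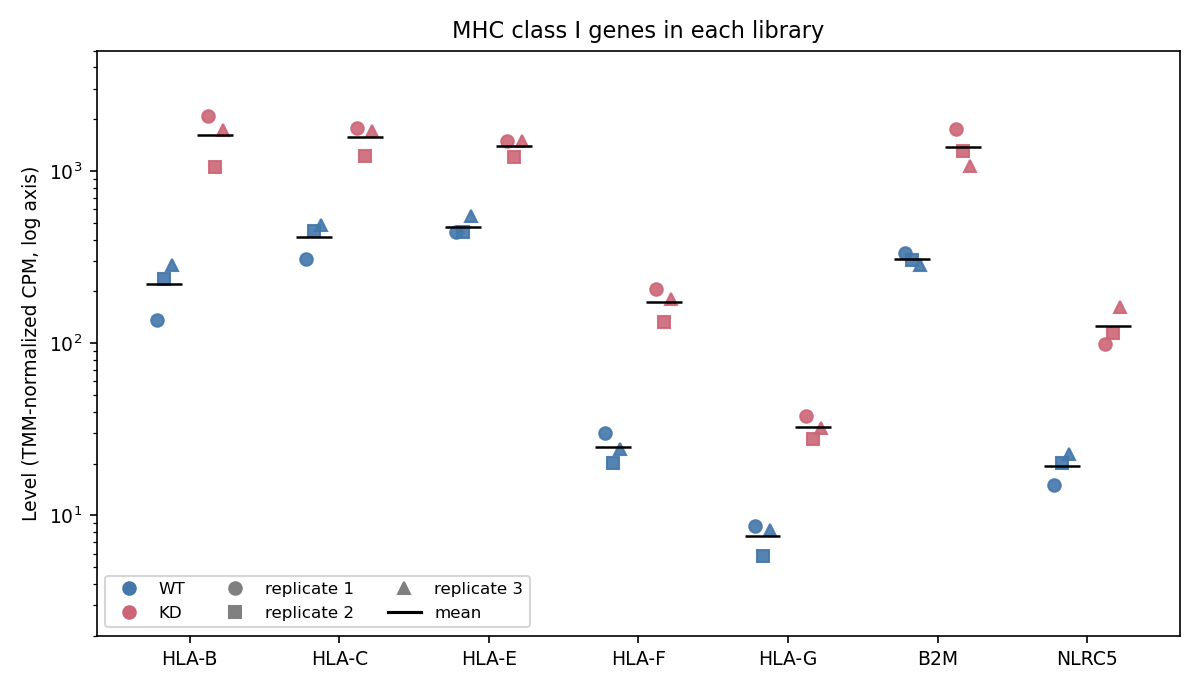
Level of each MHC class I gene in the 6 libraries, as TMM-normalized CPM on a log axis. Symbols mark replicates 1 to 3, colours mark WT and KD, and black bars are group means. For all 7 genes the KD symbols lie above the WT symbols, for HLA-G at 27.8 to 37.6 CPM against 5.80 to 8.64 CPM.

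HLA-B (ENSG00000234745, GRCh37 coordinates, as for all genes here: chromosome 6, 31321649 to 31334844, minus strand) had the largest log2 fold change of the 7 genes with all libraries in the fit, but not without WT replicate 1, where that of HLA-F was 2.94 against 2.62, nor without KD replicate 1, where that of NLRC5 was 2.85 against 2.66. Its level was 137, 237 and 286 CPM in WT replicates 1 to 3 and 2085, 1052 and 1725 CPM in KD replicates 1 to 3. The lowest WT library was replicate 1 and the lowest KD library was replicate 2, and the groups did not overlap. The mean rose from 219.96 ± 75.9 to 1620.3 ± 524 CPM (SD, 3 libraries a group), and the log2 fold change was 2.88 (SE 0.35, adjusted p = 0.00227, edgeR). Between libraries of the same replicate number, the difference in log2(CPM + 1) was 3.92, 2.14 and 2.59, so that the pair of replicate 1 set the upper end. Other annotated features that overlap HLA-B and are in the table held at most 118 counts in a library. Without WT replicate 1 the log2 fold change of HLA-B was 2.62 (adjusted p = 0.00185, edgeR).

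HLA-C (ENSG00000204525, minus strand of chromosome 6 from 31236526 to 31239907) is the other classical heavy chain described here. The WT libraries held 309, 447 and 488 CPM of HLA-C, and the KD libraries 1787, 1216 and 1721 CPM. As for HLA-B, WT replicate 1 was the lowest library of all and KD replicate 2 the lowest of its group. The log2 fold change was 1.92 (SE 0.26, adjusted p = 0.00412, edgeR), from a mean of 415 ± 93.9 to one of 1575 ± 312 CPM (SD, 3 libraries a group). The fold was thus 3.80 for HLA-C, against 7.37 for HLA-B.

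HLA-E (ENSG00000204592, plus strand of chromosome 6 from 30457286 to 30461971), whose product is a ligand of natural killer cell receptors, varied least between libraries within both groups among the heavy chains. Its levels were 440.1, 442 and 548 CPM in WT and 1491, 1209 and 1502 CPM in KD. The coefficient of variation was 12.9% in WT and 11.9% in KD, where that of HLA-B was 34.5% and 32.4%. Its log2 fold change of 1.56 (SE 0.21, adjusted p = 0.00423, edgeR) was the smallest of the 7. It came closest to the threshold without KD replicate 3 (adjusted p = 0.0472, edgeR).

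HLA-F (ENSG00000204642, plus strand of chromosome 6 from 29690552 to 29706305) encodes a heavy chain found largely inside resting cells. The WT libraries held 30.1, 20.2 and 24.4 CPM of HLA-F, and the KD libraries 206, 132 and 179.5 CPM. All KD libraries were above all WT libraries, and the log2 fold change was 2.79 (SE 0.25, adjusted p = 0.000374, edgeR). The 3 same-numbered pairs differed by 2.73, 2.65 and 2.83 in log2(CPM + 1), a narrower range than for HLA-B. The antisense RNA HLA-F-AS1, which the annotation places over HLA-F on the other strand, was at 2.15 to 2.68 CPM in WT and 1.49 to 4.17 CPM in KD (log2 fold change 0.05, adjusted p = 0.987, edgeR). The libraries were directional, but the strand setting of the counting is not given in the sources used here.

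HLA-G (ENSG00000204632, plus strand of chromosome 6 from 29794744 to 29798902) is best known from the placenta, where it restrains maternal natural killer cells. It had the lowest counts of the heavy chains, with 8.64, 5.80 and 8.19 CPM in WT and 37.6, 27.8 and 32.2 CPM in KD. The log2 fold change was 2.11 (SE 0.27, adjusted p = 0.00329, edgeR), and same-numbered pairs differed by 1.85 to 2.08 in log2(CPM + 1). Among stretches of 50 bases, the read length, 67 of the 1270 in its reference transcript (5.28%) were identical to another heavy chain described here, and the level of those chains was up to 2085 CPM. Such reads were divided between genes by RSEM before deposition, so that the small HLA-G count is uncertain, and the part of shared reads in its rise was not tested.

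B2M (ENSG00000166710, plus strand of chromosome 15 from 45003556 to 45011049) lies outside the MHC region and shared none of its 894 stretches of 50 bases with another gene. Its WT levels were 335, 305 and 284 CPM, the tightest WT group of the 7 genes (coefficient of variation 8.35%). The KD levels were 1752, 1308 and 1072 CPM, all above WT. The mean went from 308 ± 25.7 to 1377 ± 346 CPM (SD, 3 libraries a group), a log2 fold change of 2.16 (SE 0.24, adjusted p = 0.00132, edgeR) or 4.47-fold.

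NLRC5 (ENSG00000140853, plus strand of chromosome 16 from 57023397 to 57117443), the class I transactivator, was at 15.0, 20.1 and 22.6 CPM in WT and 99.2, 115 and 163 CPM in KD. The groups did not overlap, and the log2 fold change was 2.70 (SE 0.26, adjusted p = 0.000645, edgeR) or 6.52-fold. Its 6732 stretches of 50 bases were also without a match in another gene. Within KD, the order of the libraries for NLRC5 was the reverse of that for B2M, with KD replicate 1 the lowest for NLRC5 and the highest for B2M, and KD replicate 3 the other way around. A replicate number carries no rank, and 3 libraries are too few for a correlation.

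**Figure D3:**
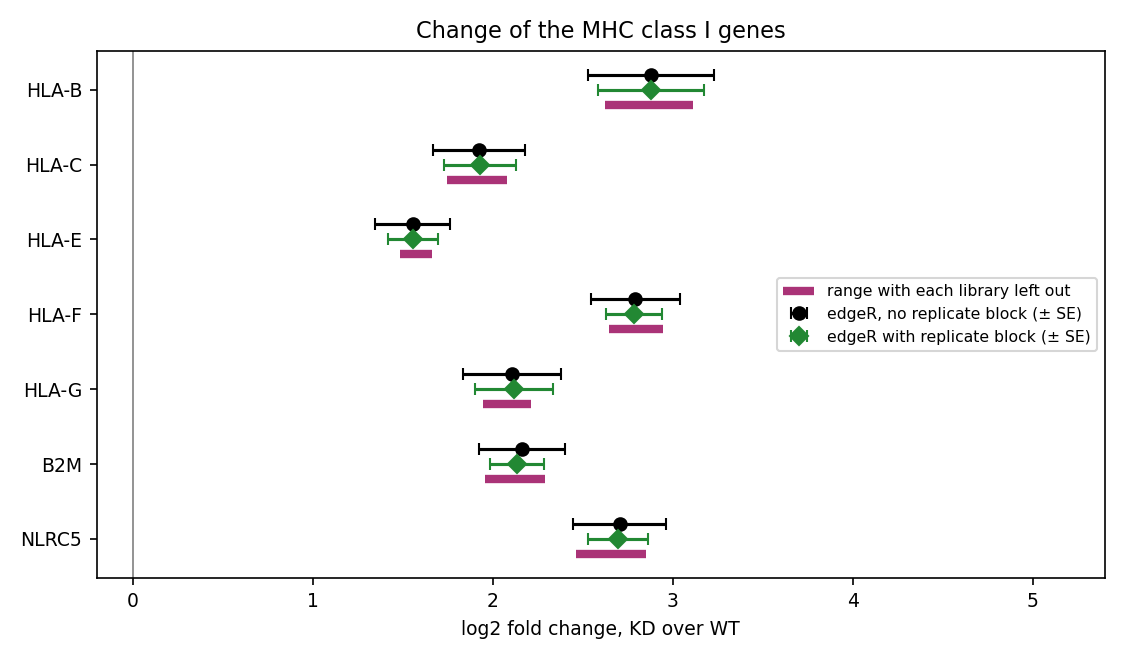
log2 fold change of KD over WT for each MHC class I gene, from edgeR without a replicate block (black, ± SE), with a replicate block (green, ± SE) and as the range with each of the 6 libraries left out in turn (purple). HLA-B, HLA-F and NLRC5 lie between 2.70 and 2.88, HLA-C, HLA-G and B2M between 1.92 and 2.16 and HLA-E at 1.56, and no range reaches 0.

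To compare levels between genes, CPM was divided by the length of each gene's reference transcript, from 943 bases for B2M to 6781 for NLRC5. On this scale of CPM per kilobase, the WT order was B2M (327 ± 27.3), HLA-C (269 ± 60.9), HLA-E (187 ± 24.2), HLA-B (143 ± 49.4), HLA-F (16.8 ± 3.37), HLA-G (5.72 ± 1.16) and NLRC5 (2.84 ± 0.573; SD, n = 3 for each). Neighbours among the first 4 overlapped between libraries, and the last 4 were separated from each other in every library. In KD the order was B2M (1461 ± 366), HLA-B (1055 ± 341), HLA-C (1021 ± 202), HLA-E (549.8 ± 65.2), HLA-F (117 ± 25.3), HLA-G (24.7 ± 3.74) and NLRC5 (18.5 ± 4.86; SD, n = 3 for each). HLA-B thus moved from the fourth to the second place in level per kilobase, although in KD its libraries overlapped those of both B2M and HLA-C. HLA-G and NLRC5 also overlapped in KD.

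RSEM divides reads that match several related genes, and a sum over the 5 heavy chains does not depend on how reads are divided among them, although it does on reads shared with class I genes outside the sum. The 5 heavy chains together were at 925, 1152 and 1354 CPM in WT and 5606, 3637 and 5159 CPM in KD. Tested as 1 unit in place of their 5 rows, they had a log2 fold change of 2.07 (SE 0.26, adjusted p = 0.00269, edgeR), or 4.20-fold. With the class I pseudogene rows added, the log2 fold change was 2.04 (adjusted p = 0.0028, edgeR). Identical stretches of 50 bases were few in the reference transcripts, from 1.89% for HLA-F to 6.76% for HLA-C counted against all annotated genes. The M14 line's own alleles, which can differ from the reference in these variable genes, are not resolved by the table.

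In the exact permutation test used for the make-up of this sum, no difference could pass a threshold of 0.05 with 3 libraries a group. The shares are given as values. HLA-B made up 14.8%, 20.6% and 21.1% of the 5 heavy chains in WT and 37.2%, 28.9% and 33.4% in KD. HLA-E made up 47.6%, 38.3% and 40.4% in WT and 26.6%, 33.2% and 29.1% in KD. Neither of these shares overlapped between the groups, and HLA-F, with 1.75% to 3.26% in WT and 3.48% to 3.67% in KD, did not overlap either. Each of these 3 differences had the smallest two-sided p that an exact permutation test of 3 libraries against 3 allows (p = 0.1; 0.167 adjusted over the 5 shares). HLA-C made up 33.4% to 38.8% in WT and 31.9% to 33.4% in KD (exact permutation test, two-sided, p = 0.2), and HLA-G 0.504% to 0.934% and 0.625% to 0.764% (exact permutation p = 1). Within all 3 same-numbered pairs, the shares of HLA-B and HLA-F were higher and those of HLA-C and HLA-E lower in KD, while the HLA-G share was higher in 2 pairs and lower in 1. The shares are within a library and so do not depend on how libraries were scaled.

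**Figure D4:**
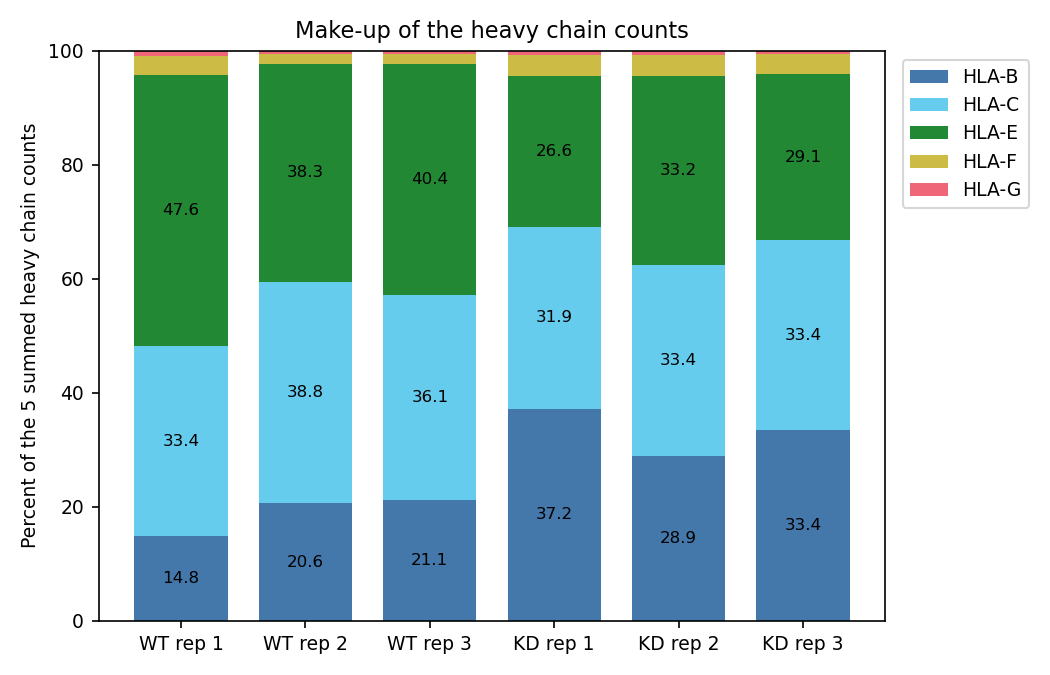
Percent of the summed counts of HLA-B, HLA-C, HLA-E, HLA-F and HLA-G taken by each gene, with 1 bar per library. The HLA-B part is at 14.8% to 21.1% in WT and at 28.9% to 37.2% in KD, and the HLA-E part is at 38.3% to 47.6% in WT and at 26.6% to 33.2% in KD.

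B2M rose 4.47-fold and the 5 heavy chains as 1 unit 4.20-fold. The ratio of B2M counts to the 5 summed heavy chains was 0.362, 0.265 and 0.210 in WT and 0.313, 0.360 and 0.208 in KD. The groups overlapped, and the difference in log2 ratio was 0.07 (exact permutation test, two-sided, p = 1), with SDs of 0.40 in WT and 0.41 in KD. With 3 libraries a group, this test cannot give a p under 0.1. No difference of any size could thus pass 0.05, and the ratios are given as values.

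Of 14 genes that supply peptides to class I molecules and load them, all of them tested, 3 rose (TAP1, TAP2 and PSMB9). None fell and 11 did not pass, and the median log2 fold change was 0.42. Over all tested genes, 1.75% passed as higher and 0.839% as lower in KD. TAP1, one subunit of the transporter that carries peptides into the endoplasmic reticulum, was at 51.2 to 80.2 CPM in WT and 509 to 654 CPM in KD (log2 fold change 3.06, adjusted p = 0.000177, edgeR). TAP2, the partner of TAP1, was at 113 to 156 CPM in WT and 301 to 385 CPM in KD (1.35, adjusted p = 0.01, edgeR). PSMB9, a catalytic subunit of the immunoproteasome, was at 38.9 to 106 CPM in WT and 193 to 253 CPM in KD (1.66, adjusted p = 0.0321, edgeR). Without KD replicate 2 or without KD replicate 3, only 1 gene of the list passed. PSMB8, another catalytic subunit, had a log2 fold change of 0.84 (adjusted p = 0.13, and 0.00882 with the replicate block, edgeR). ERAP1, which trims peptides, had 0.47 (adjusted p = 0.326) and PSME2, an activator of the proteasome, 0.45 (adjusted p = 0.493, edgeR). The general chaperones CALR, CANX and PDIA3 had log2 fold changes of 0.11, −0.33 and 0.12 (adjusted p = 0.938, 0.535 and 0.882, edgeR). CANX was lower in KD without overlap, at 348 to 412 CPM against 417 to 577 CPM in WT, while CALR and PDIA3 overlapped.

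Class I related heavy chains, which share the fold of the class I heavy chain but do not present peptides to CD8 T cells in the classical way, were less often tested, since 8 of 18 were too low for the filter. Of the 10 tested, 1 rose (PROCR), none fell and 9 did not pass, with a median log2 fold change of 0.70. The share that passed over all tested genes was 2.59%. PROCR, the endothelial protein C receptor, was at 59.8 to 81.1 CPM in WT and 187 to 205 CPM in KD (log2 fold change 1.46, adjusted p = 0.00376, edgeR). MR1, which presents vitamin metabolites to MAIT cells, had 1.26 (adjusted p = 0.0745, edgeR), and the stress ligands MICA and MICB had 0.69 and 0.72 (adjusted p = 0.106 and 0.221, edgeR). AZGP1, a secreted member, had 1.64 (adjusted p = 0.145, edgeR), and HFE, a regulator of iron uptake, had −0.81 (adjusted p = 0.317, edgeR). With the replicate block 6 of these genes passed, MR1, MICA, MICB, AZGP1 and PROCR higher and HFE lower in KD, against a background of 9.52% of all tested genes in that fit. Without WT replicate 1, 2 genes passed.

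Among 15 regulators of class I genes, 3 rose, IRF9 and STAT2 among them, and none fell, with a median log2 fold change of 0.16. Of all tested genes, 2.59% passed in this test. IRF9, the DNA-binding factor that acts with STAT2 at ISRE sites after type I interferon, was at 19.0 to 21.5 CPM in WT and 123 to 130.3 CPM in KD, without overlap (log2 fold change 2.66, adjusted p = 6.49e-05, edgeR). STAT2 was at 68.1 to 112 CPM in WT and 323 to 381 CPM in KD (1.94, adjusted p = 0.00184, edgeR). IRF2, another factor of the IRF family, was at 10.9 to 15.2 CPM in WT and 22.5 to 32.1 CPM in KD (1.04, adjusted p = 0.0802, and 0.0176 with the replicate block, edgeR). IRF1, an activator of class I promoters, overlapped between the groups, at 16.9 to 77.4 CPM in WT and 37.9 to 72.2 CPM in KD (0.16, adjusted p = 0.933, edgeR). The factors with which NLRC5 acts at the X and Y boxes did not pass in this test or with the replicate block. RFX5 had a log2 fold change of 0.29 (adjusted p = 0.488, edgeR), and RFXAP, RFXANK, NFYA, NFYB, NFYC, CREB1 and ATF1 had between −0.25 and 0.13. The NF-kB subunits NFKB1 and RELA had 0.22 and 0.31 (adjusted p = 0.697 and 0.65, edgeR).

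**Figure D5:**
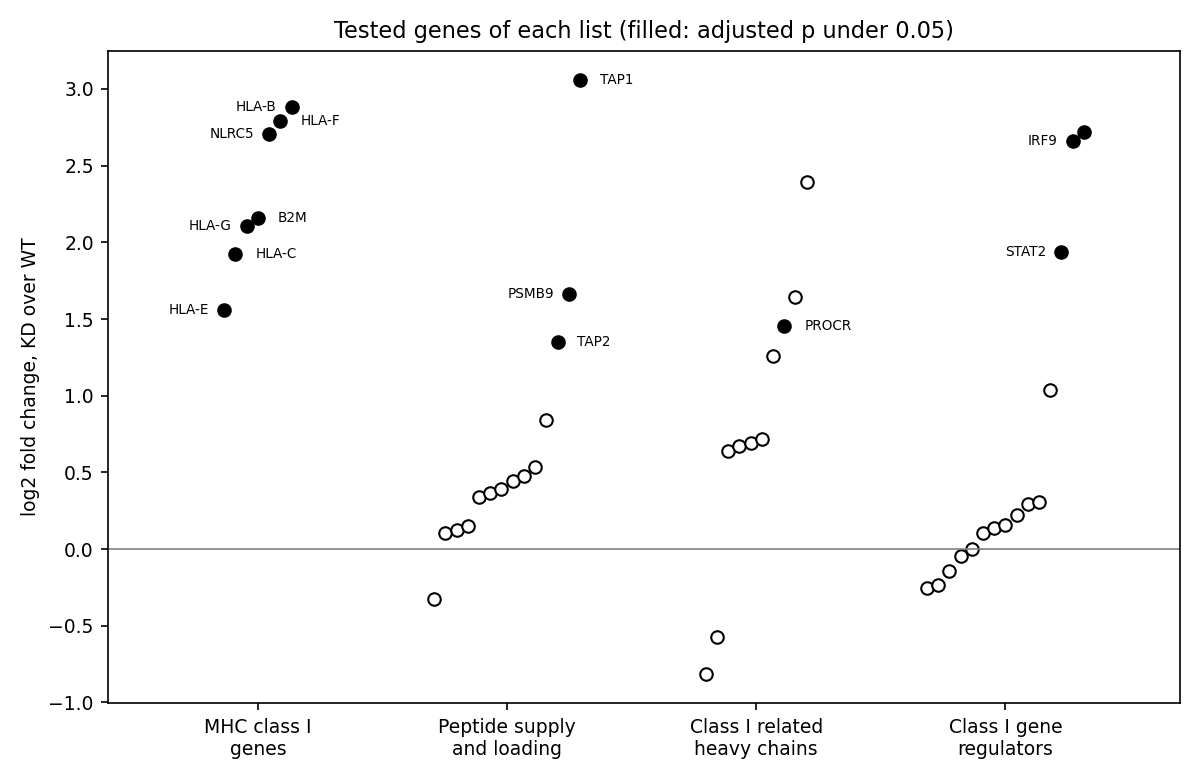
log2 fold change of KD over WT for the tested genes of each list, with points filled where the adjusted p from edgeR was under 0.05 and names beside those described in the text. All 7 MHC class I genes, chosen with results of these libraries known, are filled. So are 3 of 14 genes of peptide supply and loading and 1 of 10 class I related heavy chains. Of the class I gene regulators 3 of 15 are filled. Over all tested genes the share is 2.59%.

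The genes whose profile over the 6 libraries was most like that of each class I gene were found by the mean absolute difference of log2(CPM + 1) after each profile was centred on its mean, among tested genes of at least 1 CPM. They were IFITM3 (0.20), SP110 (0.27) and IFI35 (0.27) for HLA-B, and NMI (0.09), GBP1 (0.12) and CD83 (0.12) for HLA-C. For HLA-E they were SP100 (0.08), the pseudogene HLA-H (0.09) and RP11-284F21.7 (0.12), while PLSCR1 (0.08) and EIF2AK2 (0.14) were among the nearest 3 for HLA-F, and CD55 (0.08) and DDX60L (0.15) among those for HLA-G. B2M was followed most closely by ITGAX (0.16), HES4 (0.17) and FAM155B (0.17). FAM155B was at 0.146 to 0.969 CPM in WT, a level at which the added 1 shrinks differences. Its log2 fold change was 3.65, against 2.16 for B2M. NLRC5 was followed most closely by TRIM21 (0.13), PARP12 (0.16) and UBE2L6 (0.16). Among the class I genes themselves, the profiles of HLA-C and HLA-E were the closest pair (0.20) and those of HLA-B and HLA-E the most distant (0.66). These distances describe 6 libraries that differ mainly between 2 groups.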

How the data were processed

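Polyadenylated RNA of 6 libraries (3 WT, 3 KD) was sequenced from a single end over 50 bases. After alignment to hg19 by STAR, the authors deposited RSEM expected counts per gene, neither scaled nor filtered; expected counts are estimates, since RSEM divides reads that match several genes. Libraries were assigned to groups by their titles. Counts were rounded and tested in R 4.3.3 with edgeR 4.0.16 (filterByExpr, TMM, quasi-likelihood test, no replicate term since the methods name no pairing) on 15605 genes, with Benjamini-Hochberg adjustment over all of them. Standard errors are the absolute log2 fold change divided by the square root of F. Alternatives were DESeq2 1.42.0, upper-quartile normalization, limma-voom (limma 3.58.1), other filters, a replicate block, summed rows of a symbol and each library left out. Steps were tested on simulated data.

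Same-numbered libraries deviated together from their group means: r was 0.61, 0.48 and 0.38 across 8932 genes for replicates 1 to 3. Between differently numbered libraries r ran from −0.56 to 0.30. It was 0.30 for WT replicate 2 with KD replicate 3 and 0.20 for WT replicate 3 with KD replicate 2. Replicates 2 and 3 were thus less clearly told apart. The numbers were taken to pair the libraries in the blocked fit, not in the main test, and the blocked value is printed where it changed a call. The class I genes and the lists were chosen with earlier results of these data known. Named beside the class I genes were the 6 genes of each list with the lowest p, further list genes picked after their values were seen, and the 3 genes with the nearest profile. Gene positions and transcripts were from GENCODE 44 lifted to GRCh37, which shares its coordinates with hg19, and promoters from RefSeq on GRCh38.p14. Some results are not reported here. Depth ranged from 24895998 to 35181733 expected counts, and floors cover counting error only.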

Additional observations from a re-analysis of the deposited data

How the results depend on the processing

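Across DESeq2, upper-quartile normalization, limma-voom, no filter, at least 10 counts in every library, the replicate block, summed rows of a symbol and each library left out, the 7 class I genes kept their direction and their side of the threshold in all 91 values, with log2 fold changes from 1.48 (HLA-E) to 3.11 (HLA-B). Summing the rows of a symbol could not change the counts of these 7 genes, since each had a single row. The 5 heavy chains as 1 unit ranged from 1.93 to 2.23 with pseudogene rows added, with the block and with a library left out. The count over all genes was 988 with DESeq2, 1103 without a filter and 1486 with the replicate block, against 404, and ran from 121 to 531 with a library left out. The list of peptide supply ran from 1 to 3 genes with a library left out, against 3. Of the class I related heavy chains, 4 passed with DESeq2, 3 without a filter and 6 with the replicate block, against 1, and 1 to 2 with a library left out. With a library left out, the difference in the HLA-G share ran from −0.083 to 0.132 percentage points and that in the log2 ratio of B2M to the heavy chains from −0.115 to 0.302, both turning sign. The cause was not tested for any of these. The replicate block changed no other call among the class I genes, the 3 gene lists, the pseudogenes and the marker lists than those printed beside the results. No filter moved the median log2 fold change of all genes to −0.10.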

Other observations

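The table also lists pseudogenes of the class I family, which encode no heavy chain. Of 13 listed by name, 12 were in the table and 5 were tested. HLA-H was at 93.8, 98.9 and 108 CPM in WT and 381, 271 and 314 CPM in KD, a log2 fold change of 1.68 (SE 0.20, adjusted p = 0.00208, edgeR). HLA-J had a log2 fold change of 1.82 (adjusted p = 0.104, and 0.0148 with the replicate block, edgeR). HLA-K and HLA-L had 2.35 and 1.21 (adjusted p = 0.165 and 0.161, edgeR), with all KD libraries above all WT libraries, and at most 11.7 CPM. HLA-V had at most 0.979 CPM. Reads of these pseudogenes and of the heavy chains can be alike, and the part of shared reads in these values was not tested.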
